A study of Danio rerio with 70 samples.

Results

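The genes described here encode the proteins of the cytosolic ribosome in zebrafish, measured by RNA-seq in T-cell acute lymphoblastic leukaemia (T-ALL), in preleukemic thymocytes and in healthy thymus. A gene was included when its symbol, in either case, started with rpl or rps followed by a digit, or was rplp0, rplp1, rplp2 or rpsa. The S6 kinase genes (rps6k and a further character) and a few genes whose symbols only resemble those of ribosomal proteins, such as rps27l and rps19bp1, were left out, which removed 14 gene IDs. The rule found 80 gene IDs among the 35117 in the count tables, 46 of the large subunit and 34 of the small subunit, under 76 distinct symbols. Levels are given as CPM, counts of a gene scaled by library size to a common total and not corrected for gene length. Of the 80 genes, 79 had a mean of at least 50 CPM and 1 did not. No gene matched rpsa or rpl27a by symbol; the laminin receptor gene listed as RPSA2 lies outside the rule. Symbols are printed as the annotation table lists them, in capitals or lower case, and genes that share a symbol are given with their ID.

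Each ribosome contains a single copy of nearly every ribosomal protein, so the cell has to make them in matched amounts, and their mRNAs are among the most abundant in growing cells. Vertebrate ribosomal protein mRNAs begin with a terminal oligopyrimidine (TOP) tract, through which TOR signalling controls their translation, and MYC raises transcription of the genes in mammalian cells. RPL5 and RPL11, bound to ribosomal RNA outside the ribosome, inhibit MDM2 and so stabilise p53, while RPL5, RPL10, RPL11 and RPL22 are genes mutated in human T-ALL. Loss of RPS19 or RPL5 function causes Diamond-Blackfan anaemia in people, and RPL22 is needed for the development of alpha-beta T cells in the mouse.

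The 70 libraries of polyadenylated RNA came from 2 laboratories. From the Speleman laboratory came 6 healthy thymi dissected from Tg(rag2:GFP) fish, 2 primary T-ALL of Tg(rag2:hTLX1; rag2:GFP) fish (T1 and T2) and 4 of the same transgenics heterozygous for phf6 (PT1 to PT4), with the human TLX1 oncogene driven by the lymphoid rag2 promoter. Tumours T1, T2, PT1 and PT2 were also passed into Rag2-/- fish, which gave 6 transplants of TLX1 tumours and 6 of phf6 heterozygous ones. Of the 4 transplants of T2, libraries T2-2-1 and T2-2-3 were passed on from transplant T2-2. From the Frazer laboratory came sorted GFP+ cells that all carried Tg(lck:GFP). They were T-ALL of the lines hulk (9), otg (10) and shrek (10), preleukemic thymocytes of hulk (3), otg (4), shrek (2) and Tg(rag2:hMYC) fish (3), and healthy thymocytes (5, WT1 to WT5). Each of these lines is called a mutant in the labels of its preleukemic samples, as are the hMYC fish. For the healthy fish the labels name no mutation. The titles of the thymus libraries begin with AB, a prefix that no other title has. One thymus library carries the numbers of several fish in its name, and nothing else says whether a library was pooled; the transplants of one tumour are not independent tumours. Where nothing in the labels says that samples were separate fish, the p-values measure the spread between these libraries only.

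Genes drew 23730828 to 41393446 reads in the Speleman libraries and 8676867 to 56471528 in the Frazer libraries. The 10 T-cell markers searched (lck, zap70, rag1, rag2, cd4-1, cd8a, il7r, tcf7, ptprc, lat) were all detected in each of the 13 groups and summed to 0.126% to 2.04% of gene reads. Libraries HC2 and HC1 of hulk T-ALL had 61.4% and 24.98% of gene reads on mitochondrially encoded genes and healthy library WT3 had 22.0%; the other libraries lay under 20%. Marker lists of other tissues differed between groups, and not all in one direction. The 6 skin markers summed to 0.474% to 0.624% of gene reads in thymi and 0.00724% to 0.0393% in primary TLX1 tumours, and the 11 muscle genes to 0.218% to 0.380% against 0.000363% to 0.00376%. The other way round, the 6 exocrine pancreas genes summed to 0.00279% to 0.0112% in thymi and 0.0105% to 0.0446% in these tumours, and the 3 neutrophil genes to 0.0049% to 0.00809% against 0.0136% to 0.0578%. The 6 liver genes reached 0.0244% in thymi and 0.193% in a phf6 heterozygous tumour. In healthy sorted cells the skin list reached 0.1135% and the pancreas list 0.174%, and in hulk tumours the skin list reached 0.173%. The part of these cells in the results was not tested. The healthy sorted cells were deposited in a table of their own, so table and group cannot be told apart. The labels call the thymi dissected, the TLX1 tumours and transplants T-ALL cells collected from fish, and the Frazer cells sorted. Tumours and thymi of the Speleman laboratory thus also differ in how they were collected, which cannot be told apart from the leukaemia. The laboratories are set side by side without a test.

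The share of gene reads on the 80 genes differed widely. In the thymi it was 16.2%, 18.7%, 18.8%, 20.7%, 21.4% and 22.7%. Primary tumours T1 and T2 gave 43.8% and 42.9%, and PT1 to PT4 gave 35.5%, 50.8%, 43.9% and 47.3%. All 6 tumours lay above every thymus, with a mean difference of 24.3 percentage points (exact two-sided permutation test, p = 0.00216, the smallest that 6 against 6 allows; adjusted p = 0.0266 over 16 comparisons of shares). In bulk samples fewer cells of a type and less RNA per cell cannot be told apart, and the part of the skin, muscle and other tissue in the thymi was not tested. Counting error was small beside these gaps: the 95% Wilson interval of the thymus at 21.4% ran from 21.36% to 21.39%, and such intervals cover counting error only.

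**Figure D1:**
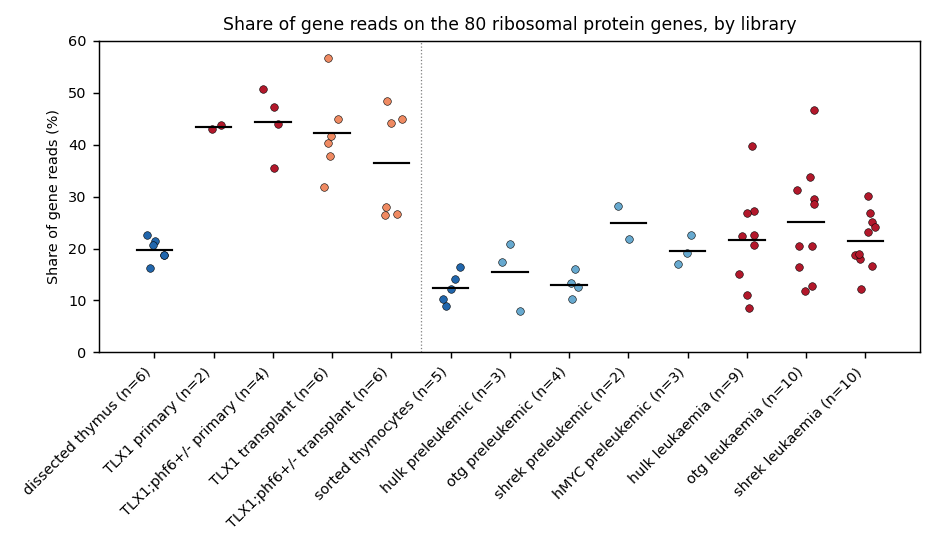
Percent of gene reads on the 80 ribosomal protein genes (vertical axis) in each of the 70 libraries, by group (horizontal axis). Each point is 1 library and the bar is the group mean; the 6 primary TLX1 tumours (35.5% to 50.8%) lie above the 6 thymi (16.2% to 22.7%), and the hulk and otg tumours spread from 8.46% to 46.7%.

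In the Frazer samples the 5 healthy sorted libraries WT1 to WT5 had 16.4%, 14.1%, 12.2%, 8.95% and 10.2% of gene reads on these genes (12.4% ± 2.97, SD, n = 5). The hulk tumours ran from 8.46% through a median of 22.3% to 39.7%, the otg tumours from 11.9% through 24.5% to 46.7%, and the shrek tumours from 12.3% through 21.1% to 30.2%. The highest healthy library was exceeded by 6 of 9 hulk, 8 of 10 otg and 9 of 10 shrek tumours, so every line overlapped the healthy cells. The mean difference was 9.20 points for hulk (exact permutation p = 0.042, adjusted 0.112), 12.8 for otg (p = 0.00999, adjusted 0.0533) and 9.03 for shrek (p = 0.00333, adjusted 0.0266), each two-sided. Only the shrek difference passed the adjusted threshold of 0.05. It was 9.0, 8.18 and 8.49 points without WT3, WT4 or WT5, each with an adjusted permutation p of 0.0533, and 8.54 points with the same adjusted p when mitochondrial genes were left out of the total. The hulk difference passed when mitochondrial genes were removed from the total (11.5 points). The lines did not differ past the threshold among themselves: otg exceeded hulk by 3.58 points (adjusted p = 0.609), shrek differed from hulk by -0.17 points (adjusted p = 0.960) and from otg by -3.75 points (adjusted p = 0.609), by permutation tests.

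Of the preleukemic cells, the hulk libraries had 7.89%, 20.9% and 17.4%, the otg libraries 10.2%, 16.0%, 13.4% and 12.6%, the shrek libraries 28.1% and 21.8%, and the hMYC libraries 19.1%, 17.1% and 22.6%. Both shrek and all 3 hMYC preleukemic libraries lay above every healthy library. Of the hulk libraries 2 lay above and 1 below every healthy library, and the otg libraries lay within the healthy range. The differences from healthy cells were 12.6 points for shrek (exact permutation p = 0.0952, adjusted 0.218) and 7.23 for hMYC (p = 0.0357, adjusted 0.112), each at the smallest p its group sizes allow. They were 3.02 points for hulk (adjusted p = 0.609) and 0.68 for otg (adjusted p = 0.835). Tumours exceeded the preleukemic cells of their own line by 6.18 points in hulk and 12.1 in otg, and shrek tumours differed by -3.54 points; the exact permutation p for otg was 0.028 and 0.112 after adjustment, and none of the 3 differences passed.

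Gene by gene, TLX1 tumours were compared with thymus by edgeR's quasi-likelihood test, with Benjamini-Hochberg adjustment over all 22224 genes tested. The fitted mean of T1 and T2 had the same weight as that of PT1 to PT4, whereas the share test weighted all tumours equally. Of the 80 genes, 79 were higher and 1 was lower at an adjusted p of 0.05; of all genes tested 20.2% were higher and 35.8% lower. The median log2 fold change was 2.44 for the ribosomal protein genes and -0.19 for all genes tested. These values follow trimmed-mean (TMM) scaling, which takes most genes as unchanged. Scaled by library size alone, the family's median was 1.11 with 78 genes higher and 1 lower, the median of all genes moved to -1.45, and the calls over all genes turned from 4493 higher and 7950 lower to 606 and 16318. The counts of 79 and 1 held whichever single tumour library was left out. The thymus libraries were not left out in turn.

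The largest changes included a small-subunit protein of the ribosome's head. RPS28 had 4287 and 3564 CPM in T1 and T2 and 3964, 10679, 5484 and 4482 in PT1 to PT4, against 1134 to 1661 in the thymi. No tumour overlapped the thymi, PT2 was the highest, and the log2 fold change was 3.21 ± 0.36 (SE). RPS12, also of the small subunit, rose by 2.96. The RPL5 gene ENSDARG00000015862 had 6674 and 6459 CPM in T1 and T2 and 5590 to 9099 in the PT tumours, against 1964 to 2694 in thymi, a log2 fold change of 2.93 ± 0.27. The other RPL5 gene (ENSDARG00000020197) rose by 2.74.

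The genes known from human T-ALL and marrow failure all rose. RPL11 had 7145 and 5210 CPM in T1 and T2 and 5716, 19851, 8352 and 9808 in PT1 to PT4, against 2908 to 4707 in thymi, with PT2 far above the other tumours and a log2 fold change of 2.48. RPL10, a large-subunit protein near the catalytic centre, had 6163 to 10511 CPM in the tumours and 2089 to 3201 in the thymi and rose by 2.78. RPS19 rose by 2.78 and RPS14, whose loss of a copy marks a human myelodysplastic syndrome, by 2.44. RPL22 rose by 2.14 and its paralogue RPL22L1 by 2.47; the lowest tumour values of RPL22L1, 1133 CPM in T2 and 1492 in PT1, still lay above the highest thymus at 1050. Of the stalk, where elongation factors bind, RPLP0 rose by 2.17 with 8728 to 16191 CPM in tumours and 5195 to 7450 in thymi, RPLP1 by 2.25 and rplp2 by 1.85.

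The smallest rises were of RPL7L1, an RPL7-like protein (1.01), rplp2 (1.85) and RPL39 (1.89), a short protein of the exit tunnel. RPL7L1 had a median of 81.4 CPM in tumours and 102.6 in thymi, in groups that overlap, and its log2 fold change by library size alone was -0.28.

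**Figure D2:**
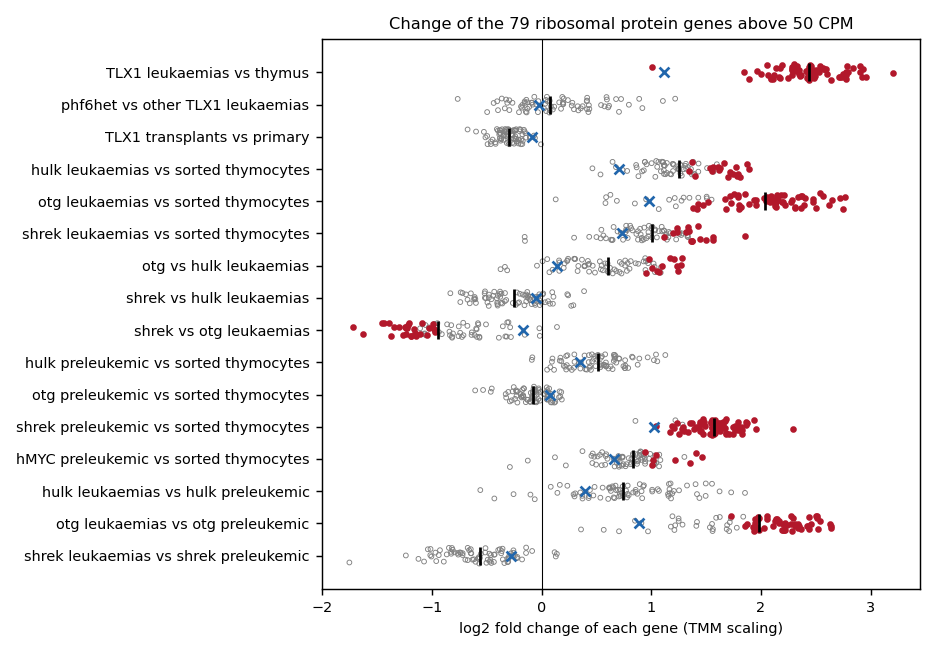
Log2 fold change (horizontal axis) of the 79 genes above 50 CPM in each of 16 comparisons (vertical axis). Each dot is 1 gene, red dots passed an adjusted p of 0.05, the black bar is the median of all 80 genes with TMM scaling and the blue cross the median by library size alone; the median is 2.44 in TLX1 tumours against thymus and -0.30 in transplants against primary tumours.

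Tumours heterozygous for phf6 were compared with the other TLX1 tumours. The 4 PT tumours exceeded T1 and T2 by 1.04 percentage points of gene reads (exact two-sided permutation p = 0.8 with 0.133 the smallest possible, adjusted 0.853), a difference that turned to -1.10 without PT2. None of the 80 genes passed the edgeR test, 2 had an unadjusted p under 0.05 (13.5% of all genes did), and DESeq2 and limma voom called 0; of all genes 0.0225% were higher and 0.018% lower. RPL22L1 had the highest log2 fold change, 1.22 ± 0.50 (edgeR adjusted p = 0.323), with 1492 to 4194 CPM in PT tumours and 1133 and 1625 in T2 and T1. RPL4, a large-subunit protein that lines the exit tunnel, had the lowest, -0.77 ± 0.29 (edgeR adjusted p = 0.287), with 3158 to 8266 CPM against 7352 and 11980.

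Transplantation was compared within tumours. For each of 4 tumours, reads of its transplants were summed and set against the primary. The share of gene reads went from 43.8% to 50.6% in T1, from 42.9% to 38.2% in T2, from 35.5% to 26.9% in PT1 and from 50.8% to 45.8% in PT2. It was higher after transplantation in 1 tumour and lower in 3, with a mean difference of -2.87 points (exact two-sided sign-flip permutation p = 0.5, adjusted 0.615; 4 pairs cannot reach 0.05).

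Transplants of one tumour were alike in some cases and apart in others. The 3 transplants of PT1 had 26.5%, 28.0% and 26.6% and all lay under their primary at 35.5%. Those of PT2 had 48.5%, 44.2% and 44.9%, under 50.8%. The 2 transplants of T1 had 56.8% and 44.9%, the first being the highest share of all 70 libraries. T2-1 and T2-2 had 40.3% and 41.7%, and the transplants passed on from T2-2 had 31.8% (T2-2-1) and 37.7% (T2-2-3), both under T2-2 and under the primary.

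By gene, none of the 80 passed the edgeR test with the tumour of origin as a block, none had an unadjusted p under 0.05 (10.1% of all genes did), and DESeq2 and voom called 0; of 15504 genes tested, 0.00645% were higher and 0.116% lower. All 80 fitted changes were below 0 with TMM scaling, whose family median was -0.30, but 17 were above 0 by library size alone, where it was -0.09. RPS28 had the lowest value, -0.68 ± 0.44 (edgeR adjusted p = 0.665), followed by RPS29 at -0.60. RPL6, a large-subunit protein, was the highest at -0.01 ± 0.36. For the panel genes RPS19 stood at -0.49 ± 0.44, with 2367 to 6038 CPM in the summed transplants and 3696 to 10444 in the primaries.

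**Figure D3:**
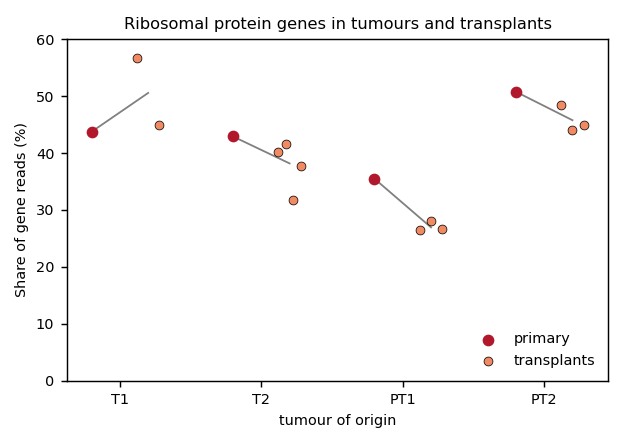
Percent of gene reads on the 80 genes (vertical axis) in the 4 primary tumours and each of their transplants, by tumour of origin (horizontal axis). All transplants of PT1 (26.5% to 28.0%) and PT2 (44.2% to 48.5%) lie under their primaries (35.5% and 50.8%), and those of T1 lie above theirs.

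The next comparisons, of the hulk, otg and shrek tumours, share the 5 healthy sorted libraries, so their values are given side by side and are not independent. By edgeR over 21831 genes, 19 of the 80 were higher in hulk tumours, 61 in otg and 17 in shrek, and 0 were lower in each. Beside them, 8.47% of all genes were higher and 5.19% lower in hulk, 12.8% and 15.1% in otg, and 8.53% and 21.7% in shrek. The median log2 fold change of the family was 1.25, 2.04 and 1.01. It fell to 0.70, 0.98 and 0.73 by library size alone, which called 13, 43 and 25 genes higher (and in otg 1 lower). That scaling called 939, 742 and 761 of all 21831 genes higher and 1101, 4902 and 5023 lower. The medians of all genes went from 0.09 to -0.24 in hulk, from -0.04 to -0.58 in otg and from -0.02 to -0.27 in shrek.

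DESeq2 and voom each called 1 gene lower in otg tumours. The number called higher rested on few libraries. Leaving out healthy library WT1, WT2, WT3, WT4 or WT5 gave 9, 5, 12, 3 and 1 in hulk and 14, 8, 6, 6 and 4 in shrek, but 57, 56, 57, 48 and 54 in otg. Without the libraries above 20% mitochondrial reads the counts were 8 in hulk and 5 in shrek. When only the 2 groups compared entered the fit, they were 24 in otg and 41 in shrek. For these smaller fits the calls over all genes are not given here.

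In hulk tumours RPL19, a large-subunit protein at the subunit interface, ran from 1041 CPM (HC2) through a median of 4500 to 13298 (HC7), against 1591 to 2642 in healthy cells. It lay above every healthy library in 8 of 9 tumours and below them in 1, with a log2 fold change of 1.89 ± 0.56 (edgeR adjusted p = 0.0224). The tumour below, HC2, had most of its gene reads on mitochondrially encoded genes, which count in the CPM total. The part of these reads in its low value was not tested. RPL5 ENSDARG00000020197 ran from 1510 through 3380 to 7351 CPM against 1222 to 1897, and rose by 1.87 ± 0.48 (adjusted p = 0.0107). The lowest values were those of rplp2 (0.46), RPL7L1 (0.54) and RPLP1 (0.65), none of which passed; rplp2 had 172 to 1884 CPM in tumours and 152 to 1175 in healthy cells, which overlap.

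In otg tumours RPL5 ENSDARG00000015862 ran from 3243 through 5595 to 8721 CPM against 1296 to 2088, above the healthy cells in 10 of 10 tumours. Its log2 fold change was 2.77 ± 0.53 (edgeR adjusted p = 0.000265). RPL15, a large-subunit protein, rose by 2.75 ± 0.60, with 9 of 10 above. The stalk protein rplp2 was lowest, at 0.13 with TMM and -0.89 by library size alone, with 109 to 1241 CPM against 152 to 1175.

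In shrek tumours RPL5 ENSDARG00000015862, from 2701 through 4139 to 5575 CPM, was above the healthy cells in 10 of 10 and rose by 1.56 ± 0.49 on the log2 scale (edgeR adjusted p = 0.0134). RPL15 rose by 1.56 (adjusted p = 0.0299). RPL38 and RPL29 of the large subunit and rplp2 of the stalk had values of -0.15, 0.30 and -0.15 and did not pass. Without WT3 those of RPL38 and rplp2 were 0.04 and 0.09.

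Between lines, 12 genes were higher and 1 lower in otg than in hulk tumours by edgeR (9.29% and 19.1% of all genes). By library size alone 6 were higher and 2 lower, beside 799 and 5116 of all 21831 genes, with the all-gene median at -0.35 instead of -0.06. With only both groups in the fit 0 passed, and the calls over all genes in that fit are not given here. RPS14 (1.28 ± 0.45, edgeR adjusted p = 0.0305), RPL34 (1.28 ± 0.43, adjusted p = 0.0240) and RPS16 (1.25 ± 0.41, adjusted p = 0.0212) had the highest values, though in each no more than 5 of 10 otg tumours exceeded every hulk tumour. In shrek against hulk 0 genes were higher and 1 lower, while 15.3% of all genes were higher and 31.4% lower. In shrek against otg 0 were higher and 27 lower (4.49% and 13.5% of all genes), with a family median of -0.94.

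The last count depended on the method. DESeq2 called 40 of the 80 lower in shrek than in otg and voom 3, and a fit of both groups alone called 1. The calls of these 3 settings over all genes are not given here. Library size alone called 1 higher and 1 lower, and 961 and 1083 of all genes, with the all-gene median at 0.18 instead of -0.16. RPL14 ran from 871 through 1585 to 2336 CPM in shrek and from 1426 through 3011 to 7341 in otg tumours, a log2 fold change of -1.72 ± 0.42 (edgeR adjusted p = 0.00403) in groups that overlap. RPL34 stood at -1.63 (adjusted p = 0.00592) and RPL19 at -1.45 (adjusted p = 0.0135). RPLP1 (-0.02) and RPL23 (-0.02) did not pass.

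The preleukemic comparisons share the same 5 healthy libraries as well. By edgeR over 19531 genes, 74 of the 80 were higher in shrek preleukemic cells, 8 in hMYC cells, and 0 in hulk and in otg cells, with 0 lower in each. Of all genes, 17.3% were higher and 20.7% lower in shrek, 8.61% and 11.3% in hMYC, 2.24% and 1.54% in hulk, and 1.75% and 3.58% in otg. Family medians were 1.57, 0.83, 0.52 and -0.07 in that order. DESeq2 called 65 higher and 1 lower in shrek and 13 higher in hMYC, and voom 61 and 1, and 7. Calls of both tools over all genes are not given here. By library size alone 45 were higher in shrek (family median 1.03, all-gene median -0.82 instead of -0.27) and 10 in hMYC (family median 0.66, all-gene median -0.30 instead of -0.10). That scaling called 1402 of all 19531 genes higher and 5365 lower in shrek, and 832 and 2366 in hMYC.

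In shrek preleukemic cells RPL35 of the large subunit had 3554 to 5191 CPM against 870.5 to 2066 in healthy cells, with no overlap. It rose by 1.96 on the log2 scale (edgeR adjusted p = 0.00363), and RPLP1 of the stalk by 1.94 (adjusted p = 0.00767). RPL38 (0.86), RPL7L1 (1.04) and RPLP0 (1.17) had the lowest values. The group has 2 libraries, of which SPL001 had 28.1% of its reads on these genes. With each healthy or shrek preleukemic library left out in turn, the log2 fold change of RPL35 ran from 1.45 to 2.31. That of RPLP1 ran from 1.53 to 2.23.

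In hMYC preleukemic cells RPS14, a small-subunit protein, had 3834, 3486 and 4464 CPM against 2339, 2307, 1291, 1006 and 1294 in WT1 to WT5, with no overlap. It rose by 1.41 ± 0.45 on the log2 scale (edgeR adjusted p = 0.0347), and RPS9, also of the small subunit, by 1.35 ± 0.42 (adjusted p = 0.0321). RPLP0 had 0.12 ± 0.37, RPL38 -0.13 and rplp2 -0.29. The count of 8 fell to 0, 1 and 0 without MPL1, MPL2 and MPL3, and to 4, 2, 1 and 1 without WT2, WT3, WT4 and WT5. For these smaller fits the calls over all genes are not given here. With all libraries, 35 of the 80 genes had an unadjusted edgeR p under 0.05, against 36.1% of all genes.

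For hulk and otg preleukemic cells DESeq2 and voom also called 0 genes, and 1 gene in hulk and 0 in otg had an unadjusted p under 0.05 by edgeR, against 21.9% and 19.4% of all genes. The count in hulk turned to 39 when HPL1, the library with 7.89% of its reads on these genes, was left out. How many of all genes passed in that fit is not given here. In hulk RPL38 (1.13 ± 0.60, edgeR adjusted p = 0.278), RPS29 and rplp2 had the highest values, with 334, 2010 and 2599 CPM of RPL38 in HPL1, HPL2 and HPL3.

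Against the preleukemic cells of their own line, otg tumours had 51 of the 80 genes higher and 0 lower by edgeR (6.55% and 5.52% of all genes). DESeq2 and voom called 60 and 44 higher, and their calls over all genes are not given here. By library size alone 31 were higher and 0 lower, beside 152 and 2432 of all 21831 genes. The family median was then 0.89 instead of 1.98, and the all-gene median -0.64 instead of -0.01. A fit of both groups alone called 0. Without OPL1 or OPL4 the count was 16 and 24. For these smaller fits the calls over all genes are not given here. RPL19 (2.64 ± 0.64, edgeR adjusted p = 0.00753), from 3357 through 6167 to 12590 CPM against 1733, 3023, 2163 and 1990 in OPL1 to OPL4, lay above them in 10 of 10 tumours. RPL5 ENSDARG00000015862 (2.64, adjusted p = 0.0039) did too, and RPS9 rose by 2.63 (adjusted p = 0.0135). In hulk, 0 genes were called by edgeR, DESeq2 or voom, and 0.0825% of all genes were higher and 0.124% lower. An unadjusted p under 0.05 was found for 13 of the 80, against 16.6% of all genes. In shrek, 0 were called by each tool with 6.12% and 9.25% of all genes higher and lower, and 1 had an unadjusted p under 0.05, against 31.7% of all genes. That gene, rplp2 with the lowest value there (-1.75 ± 0.77, adjusted p = 0.112), had 404 to 808 CPM in tumours and 1324 and 2023 in the preleukemic cells, with no overlap.

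Ratios of paralogues within a library do not depend on scaling. The 7 pairs tested share sequence, so the authors' counting could split or drop reads that match both, and the ratios are uncertain in level. RPL7L1 over RPL7, a protein of the large subunit, had a geometric mean of 0.00903 in TLX1 tumours and 0.0267 in thymi (adjusted p = 0.0187), 0.0100 in otg and 0.0166 in shrek tumours against 0.0322 in healthy cells (adjusted 0.0149 and 0.0187), all by exact permutation. Hulk tumours had a median ratio of 0.0279 (0.00394 to 0.0334), beside 0.0323 in healthy cells. RPL7 had medians of 3766 CPM in thymi, 8746 in T1 and T2 and 9361 in PT tumours. Those of RPL7L1 were 102.6, 84.3 and 81.4. rps27.2 over rps27.1 was 0.268 in TLX1 tumours and 0.429 in thymi (adjusted p = 0.0428, exact permutation). RPS26 ENSDARG00000037071 over RPS26 ENSDARG00000030408 was lower in shrek tumours than in both other lines, in groups that overlap (geometric means 0.481 in shrek, 0.761 in hulk and 0.702 in otg; adjusted p = 0.0187 for both by permutation). Healthy sorted cells had a median ratio of 0.558 (0.407 to 0.767), beside medians of 0.494 in shrek, 0.830 in hulk and 0.682 in otg tumours. The RPL22L1 to RPL22 ratio was 0.650 and 0.539 in T1 and T2 and 0.839 to 2.10 in the 4 PT tumours, which all lie higher, but the exact permutation p of 0.133 is the smallest that 4 against 2 allows (adjusted 0.332). No comparison of this pair or of the RPL5 pair passed.

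The make-up of the family also varied between libraries. On average RPL3 took 3.22% of all reads on the family, RPLP0 3.14%, RPS2 3.02%, rpl7a 2.69% and RPL4 2.31%, without correction for length. The share of rplp2 ran from 0.0583% of family reads in HC7 to 1.17% in HPL3, a 20.1-fold range, while that of RPL18 ran over a 1.84-fold range. The share of RPL4 ran from 0.622% in PT2 to 6.23% in OC9 and that of RPL11 from 0.446% in HC9 to 3.91% in PT2. A principal component analysis of the log shares of 79 genes put 55.9% of the variance on the first axis, whose ends were rplp2, RPL36, RPL37, RPL38 and RPS29, all genes of short proteins, and RPL6, RPL13, rpl7a, RPL4 and RPL5 ENSDARG00000015862.

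The 5 genes of the first end together held 3.79% to 4.82% of family reads in thymi and 3.52% to 4.79% in primary TLX1 tumours. They held 1.49% to 5.69% in healthy sorted cells, 0.797% to 5.07% in hulk tumours, 2.27% to 3.68% in shrek tumours and 1.07% to 3.29% in otg tumours. The 5 genes of the other end held 6.86% to 7.57% in thymi, 4.81% to 9.17% in primary TLX1 tumours, 8.14% to 14.5% in healthy sorted cells, 6.47% to 17.1% in hulk tumours, 10.1% to 11.7% in shrek tumours and 9.09% to 18.7% in otg tumours. By score on the axis, 9 of 10 otg tumours (2.15 to 6.17), hulk libraries HC6 to HC9 (3.19 to 6.35) and healthy library WT4 lay farthest toward this end. Shrek tumours (0.17 to 1.94) and hulk preleukemic library HPL1 (1.28, with 13.4% of family reads on the 5 genes) scored between these and the rest of the healthy cells. The preleukemic otg cells had 10.1% to 10.5% on the 5 genes. The relation of this axis to RNA quality or library preparation was not tested. The part of the axis in the gene-level differences was not tested.

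**Figure D4:**
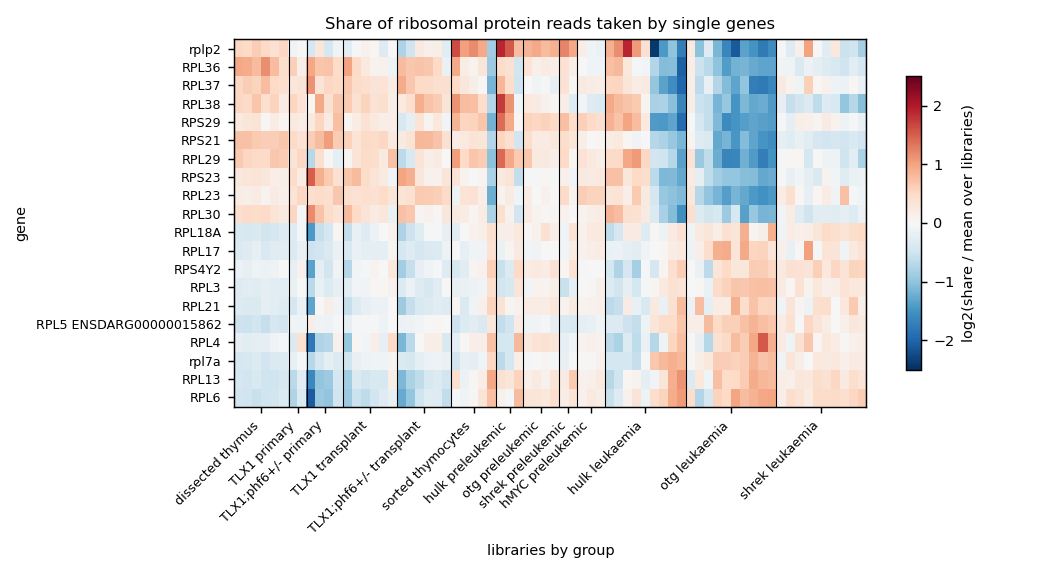
Log2 of each gene's share of family reads over its mean share (colour) for the 10 genes at each end of the first principal axis (vertical axis) in all libraries, by group and ordered by score within a group (horizontal axis). Most otg tumours, HC6 to HC9 and WT4 have low shares of rplp2, RPL36 and RPL38 and high shares of RPL4, RPL6 and RPL13.

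Genes that work with the ribosome were counted by 6 lists. In TLX1 tumours against thymus, 57 of 61 ribosome biogenesis genes were higher and 0 lower by edgeR (20.2% and 35.8% of all genes). Their median log2 fold change was 0.94. By library size alone 3 were higher and 13 lower, with a median of -0.32. Beside them, 606 of all 22224 genes were higher and 16318 lower by library size alone, with a median of -1.45. GTPBP4, a nucleolar GTPase of large-subunit assembly, had 2357 ± 676 CPM in tumours (SD, n = 6) and 491 ± 71.1 in thymi (n = 6), a log2 fold change of 3.65 ± 0.24. The helicase DDX21 rose by 2.73, and NOP56, a core protein of box C/D particles, by 1.54 with 337 ± 106 and 286 ± 21.9 CPM. Of the ribosomal proteins outside the rule, FAU (2.33) and RACK1 (1.96) rose, also by library size alone.

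Of 18 elongation factor and other TOP mRNAs 13 were higher and 3 lower in TLX1 tumours (8 and 3 by library size alone). EEF1B2 rose by 2.15, eef2b by 1.87 and eef1a1l1 by 1.86. Of 38 initiation factors 32 were higher and 0 lower (8 and 11 by library size alone), with EIF3H at 2.18 and eif3ea at 2.02. Of all 22224 genes, 4493 were higher and 7950 lower with TMM, and 606 and 16318 by library size alone. Of 17 TOR pathway genes 8 were higher and 1 lower (1 and 8 by library size alone), and of 14 p53 targets 6 were higher and 3 lower (0 and 9). Among these, mdm2, the ligase that RPL5 and RPL11 inhibit, had a log2 fold change of 0.59 ± 0.14 with TMM (edgeR adjusted p = 0.00309) but fewer CPM in tumours (31.3 ± 8.70) than in thymi (51.5 ± 8.18).

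Against healthy sorted cells, 8 biogenesis genes were higher in hulk tumours, 32 in otg and 30 in shrek tumours, and 32 in shrek and 13 in hMYC preleukemic cells by edgeR, with 0 lower in each. Each count is of 61 genes, and of all genes 8.47%, 12.8%, 8.53%, 17.3% and 8.61% were higher in that order. By library size alone 0 passed in hulk, 3 in otg and 3 in shrek tumours, 7 in shrek preleukemic cells, with 2 lower there, and 6 in hMYC cells. Of all 21831 genes, library size alone called 939, 742 and 761 higher in hulk, otg and shrek tumours. In preleukemic cells it called 1402 higher and 5365 lower of 19531 genes in shrek, and 832 and 2366 in hMYC. Of the 38 initiation factors, 12, 24 and 13 were higher in hulk, otg and shrek tumours, with 0 lower, against 8.47%, 12.8% and 8.53% of all genes. By library size alone 4, 13 and 7 were higher and 0, 1 and 1 lower, while 1101, 4902 and 5023 of all 21831 genes were lower. Of the 18 elongation factor and other TOP mRNAs, 5, 11 and 8 were higher and 0, 1 and 3 lower in these lines by edgeR. Of all genes 8.47%, 12.8% and 8.53% were higher and 5.19%, 15.1% and 21.7% lower. In this list the elongation factor subunit eef1da had 371 ± 111 CPM in healthy cells (SD, n = 5). It had 1078 ± 460 in hulk (n = 9), 1739 ± 1487 in otg (n = 10) and 1346 ± 663 in shrek tumours (n = 10). Its log2 fold changes of 2.04, 3.05 and 2.16 passed in each line. RACK1 passed in hulk (1.69) and otg (2.59). In transplants against primary tumours the median log2 fold change was -0.09 for biogenesis genes and -0.02 for initiation factors with TMM, and 0.10 and 0.18 by library size alone.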

How the data were processed

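Poly(A)-selected RNA was measured in 70 libraries of 13 groups, taken from the sample titles and characteristics. The values are raw counts of reads per gene as deposited by the authors, in tables of both laboratories; STAR and the GRCz10 build are named per the submitters' processing notes. The annotation release, the strand setting and the handling of reads that match several genes are not given in the sources used here. The 46 Frazer libraries also have summary lines (unmapped, multimapped and unassigned reads), 17.9% to 52.6% of their total, left out of library sizes and tests. Columns that match no sample, 9 in all, were not used. Symbols came from the annotation table for 27000 of 35117 gene IDs. No sequences are given here.

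The members and gene lists were chosen with earlier results of these data known. A share is the percent of gene reads on the 80 genes; differences of group means were tested by exact two-sided permutation (100000 resamples for 10 against 10), adjusted by Benjamini-Hochberg over 16 comparisons. Genes were tested in R 4.3.3 with edgeR 4.0.16 (low genes dropped by filterByExpr at 10 reads, 15 in all; TMM factors of 0.319 to 1.75, robust quasi-likelihood F-test, adjusted p of 0.05 over all genes tested). The fits held the 12 Speleman tumours and thymi, the 46 Frazer libraries, or the 12 preleukemic with the 5 healthy libraries; transplants were summed per tumour, with tumour of origin as a block. All 80 genes passed the filter in each fit. CPM are by library size. Paralogue ratios are log2 of reads plus 0.5, for pairs with a mean of at least 10 reads of each gene, tested by exact permutation. The text names, in each comparison, the 3 genes with the highest and the 3 with the lowest log2 fold change above 50 CPM, genes called against the majority, the 5 with most reads and a panel of genes of human T-ALL and marrow failure and the stalk; this is shortened where values repeat, and a few genes are counted but not reported here by name.

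Alternatives were limma 3.58.1 (voom), DESeq2 1.42.0 as a test and for size factors, TMM without the members, library size alone, no filter beyond 1 read, libraries above 20% mitochondrial reads left out, only the compared groups in the fit, single libraries left out and a replicate block. Single libraries left out were primary TLX1 tumours, healthy sorted cells and preleukemic cells, not thymi or hulk, otg and shrek tumours. Calls over all genes are given for the main fits and in places for library size alone, and for no other setting. The procedure was tested on simulated data in which equal numbers of genes were raised and lowered. That simulation does not cover a shift of most genes, so it cannot decide between the scalings. Replicate numbers were not taken to pair samples: correlations of same-numbered deviations ran from -0.454 to 0.523, and in no comparison were all above 0.1. Against healthy cells, 3 of 3 hMYC (0.0759 to 0.211) and 2 of 3 hulk preleukemic pairs correlated best with their own number. In each other comparison 0 or 1 did. Of 201 replicate pairs none agreed within sampling noise (lowest median chi-square 2.31). Figures were drawn with matplotlib 3.10.9 and permutations run with scipy 1.17.1.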

Additional observations from a re-analysis of the deposited data

Results flagged for a closer look

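Of 54 groups of 4 to 10 libraries checked for one far from the others, 3 had such a library; chance gives about 1 in 20 groups. The log2 ratio of RPL5 ENSDARG00000020197 to RPL5 ENSDARG00000015862 was 0.40 in shrek library SC002. The log2 ratio of RPL7L1 to RPL7 was -6.26 in tumour PT1, the highest of the 4 phf6 heterozygous tumours. The log2 ratio of rps27.2 to rps27.1 was -2.61 in hulk library HC7, the lowest of the hulk tumours.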

How the results depend on the processing

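Of the shares, 131 values under other settings kept their direction and side of the threshold; of the counts of members called, 156 stayed within 1.5 times the value given and 53 did not; of single genes and ratios, 612 kept both, 38 changed sign, 68 no longer passed and 1 newly passed. The cause of these changes was not tested. For shares, the hulk tumour difference was 11.5 points without mitochondrial genes, which passed. That of shrek tumours was 8.54 points without mitochondrial genes, 3.59 with summary lines in the total, 930.5 CPM as the median member and 9.0 without libraries above 20% mitochondrial reads, none past the threshold. It was 8.18 to 10.03 leaving out each healthy library. The phf6 difference was -1.10 to 3.999 leaving out each library (lowest without PT2), shrek against hulk 24.5 CPM by median member, and otg preleukemic cells -1.52 with summary lines and -0.316 to 1.67 leaving out each library (-0.181 without WT4, lowest without OPL2).

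Counts of members called moved as follows. Calls over all genes are given above for library size alone and for no other of these settings. For hulk tumours against healthy cells they were 11 with DESeq2 size factors, 11 with no filter, 8 without high-mitochondrial libraries and 7 with the replicate block. For otg tumours they were 24 with only the compared groups and 0 with the replicate block. For shrek tumours they were 4 with DESeq2 size factors, 5 without high-mitochondrial libraries and 41 with only the compared groups. For otg against hulk they were 8 by library size alone, 8 by voom, 1 without high-mitochondrial libraries, 0 with only the compared groups and 0 with the replicate block. For shrek against hulk each of no filter, no high-mitochondrial libraries, only the compared groups and the replicate block gave 0. For shrek against otg they were 2 by library size alone, 17 with no filter, 3 by voom, 1 with only the compared groups and 0 with the replicate block. For shrek preleukemic cells library size alone gave 45. For hMYC cells they were 3 with DESeq2 size factors, 13 by DESeq2, 2 without high-mitochondrial libraries and 2 with the replicate block. For otg tumours against their preleukemic cells they were 31 by library size alone, 0 with only the compared groups and 0 with the replicate block. For shrek tumours against theirs they were 2 with only the compared groups and 2 with the replicate block. The replicate numbers were not taken as a pairing, so the block is a check only. Leaving out each healthy library gave 1 to 12 for hulk tumours and 4 to 14 for shrek tumours. No hulk, otg or shrek tumour library was left out. Leaving out each healthy or preleukemic library gave 0 to 39 for hulk, 4 to 75 for shrek and 0 to 7 for hMYC preleukemic cells. For otg tumours against theirs, leaving out each otg preleukemic library gave 16 to 42.

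Single genes changed sign as follows. In otg tumours against healthy cells the log2 fold change of rplp2 was -0.0328 with DESeq2 size factors and -0.0327 by DESeq2, -0.0498 with TMM without the members, -0.89 by library size alone, -0.36 by voom, -0.0702 with no filter, -0.35 with the replicate block and -0.14 without WT4; that of RPL7L1 was -0.17 by library size alone. In TLX1 tumours RPL7L1 was -0.28 by library size alone. In shrek tumours RPL38 was 0.0188 without WT1 and ran from -0.40 (without WT4) to 0.0354 (without WT3), and rplp2 was 0.15 by voom and ran from -0.42 (without WT4) to 0.0908 (without WT3). In otg against hulk rplp2 was 0.00601 without high-mitochondrial libraries. In shrek against otg RPL23 and RPLP1 were 0.0768 and 0.0764 with TMM without the members, 0.74 and 0.69 by library size alone, 0.60 and 0.52 by voom, 0.0898 and 0.0889 with no filter, and 0.37 and 0.22 with the block. In hMYC cells rplp2 was 0.0466 by voom. RPL38 was 0.13 by voom and 0.0360 without high-mitochondrial libraries, and ran from -0.38 (without WT4) to 0.0644 (without WT1). RPLP0 was -0.0352 by library size alone and -0.25 with the block, and ran from -0.0409 (without MPL3) to 0.31 (without WT1), with -0.0368 without WT5. In otg tumours against their preleukemic cells rplp2 was -0.80 by library size alone, -0.45 by voom and -1.07 with the block, and RPL7L1 was -0.28 by library size alone.

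Several limits hold. Fits of TMM and library size alone give different levels for the whole family. Groups of 2 to 5 libraries let 1 library set a count. Reads shared by near-identical copies cannot be assigned from these tables.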
